A study of Mus musculus with 6 samples.

Results

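The genes described here encode the enzymes that tie matrix proteins to one another by covalent crosslinks: the 5 lysyl oxidases (Lox, Loxl1, Loxl2, Loxl3 and Loxl4) and the tissue transglutaminase Tgm2. They were chosen by name, as a family, with earlier results of these data known. They make up 6 of the 56393 genes in the deposited count table. Their Ensembl identifiers were matched to mouse symbols, and all 6 passed the filter on low counts. RNA was sequenced from mouse vascular smooth muscle cells, entered as a cell line in the sample attributes but called primary in the growth protocol, in a Nono knockout (KO) with 3 libraries and in wild type (WT) with 3 libraries. The Nono protein binds nucleic acids and sits in nuclear paraspeckles, and the study concerns vascular calcification and transcription of Bmp2. Both groups grew in serum-containing medium with no further treatment. The labels give neither the way the knockout was made nor the strain, sex or age of the animals, and they do not say whether replicates were separate cultures, so the p-values rest on a spread that may be technical.

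Lysyl oxidases are secreted, copper-dependent amine oxidases that turn lysine and hydroxylysine side chains of collagen and elastin into reactive aldehydes, which then condense into crosslinks. Lox and Loxl1 are made as proenzymes and are cut by procollagen C-proteinases such as Bmp1, whereas Loxl2, Loxl3 and Loxl4 carry scavenger receptor domains in front of the catalytic domain. In arteries these crosslinks give collagen and elastic fibres their strength, and loss of Lox in mice causes rupture of the aorta. Tgm2 works in another way: it is a calcium-dependent enzyme that joins glutamine to lysine residues, for example in fibronectin.

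Of the 6 genes, Loxl4 alone was lower in KO. Its promoter is shown here, but it was not picked for this direction. The sequence was taken from the RefSeq promoter table used (GRCm38.p6, minus strand, chr19:42612757-42613056, 250 bases before the start site and 50 bases after it). Promoters of the other members were not described. Capitals mark the GC box GGGCGG, searched on both strands.
Loxl4 promoter: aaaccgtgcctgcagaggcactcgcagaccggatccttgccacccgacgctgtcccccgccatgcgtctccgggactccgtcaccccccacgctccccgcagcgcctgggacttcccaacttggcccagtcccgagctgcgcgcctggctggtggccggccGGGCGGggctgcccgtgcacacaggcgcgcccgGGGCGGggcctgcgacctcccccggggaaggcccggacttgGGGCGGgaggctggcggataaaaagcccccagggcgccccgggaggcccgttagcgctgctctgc
The window was 75% G or C, against a median of 52.7% over the 32851 promoters of the table, of which 96.1% had a lower value. It held 3 GC boxes, which began 89, 56 and 15 bases before the start site. At least 1 GC box was present in 35.7% of all promoters and 3 or more in 10.7%. The Smad-type motif CAGAC matched once, 226 bases before the start, and was present in 49.6% of promoters. There was no match on either strand to the TATA box TATAAA (13.6% of promoters), the E-box CANNTG (72.3%) or its Snail-type form CAGGTG (20.2%), the hypoxia motif ACGTG (19.6%), the AP-1 motif TGANTCA (7.81%), the TEAD motif GGAATG (14.7%) or the CArG box (1.63%). These are descriptions of letters in one window, and binding was not measured.

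Library totals lay between 57295800 and 61670083 counts in KO and between 56529170 and 60864603 in WT. Nono was at 51.1 to 55.97 CPM (counts scaled to library size) in the KO libraries and at 502 to 523 CPM in the WT libraries (edgeR adjusted p = 1.63e-09). Smooth muscle identity could not be read from the markers alone. Of 10 markers, 4 lay under 1 CPM in KO and 4 in WT. All 10 were tested, with 5 higher in KO (Acta2, Tagln, Cnn1, Lmod1 and Smtn) and 3 lower (Myocd, Des and Synpo2). Acta2 was at 161 CPM in KO and 16.4 CPM in WT. Myh11 was scarce in both groups and not called (0.219 CPM in KO, 0.467 CPM in WT, edgeR adjusted p = 0.375). Myocd, the coactivator that drives the smooth muscle programme, was at 0 in KO and scarce in WT (0.428 CPM). The sum of the markers was 575 to 816 CPM in KO and 412 to 614 CPM in WT. Most of it was Cald1, which was not called (480 CPM in KO, 452 CPM in WT). Markers of other cell types moved with genotype. Beside all of these marker counts stand 35.1% of all tested genes that were higher in KO and 34.2% that were lower. Of 12 fibroblast markers 11 were tested, and 10 of these were higher in KO and 0 lower, with sums of 2693 to 2926 CPM in KO and 90.7 to 116 CPM in WT, where Lum and Thy1 were at 0. Tcf21 was at 0 in both groups. Of 8 pericyte markers 4 were tested, with 1 higher and 2 lower (sums 125 to 145 CPM in KO, 171 to 216 CPM in WT, Abcc9 at 0 in both). These sums hide large opposite changes. Rgs5 was higher in KO (46.2 CPM in KO, 2.37 CPM in WT). Cspg4 (4.46 CPM in KO, 76.7 CPM in WT) and Mcam (2.34 CPM in KO, 49.9 CPM in WT) were lower. Notch3 was not called (80.2 CPM in KO, 64.8 CPM in WT). For mesothelium and epithelium 4 of 10 markers were tested, with 2 higher and 2 lower (sums 9.87 to 13.5 CPM in KO, 77.1 to 84.9 CPM in WT, Epcam and Krt18 at 0 in both). For endothelium 5 of 10 were tested, with 1 higher and 4 lower (sums 2.69 to 3.26 CPM in KO, 9.60 to 11.2 CPM in WT, Tie1 and Cldn5 at 0 in both, and Cdh5, Kdr, Emcn and Erg at 0 in KO). For macrophages and leukocytes 4 of 10 were tested, with 2 higher and 1 lower (sums 5.58 to 6.53 CPM in KO, 9.37 to 10.9 CPM in WT, Ptprc, Adgre1, Itgam, C1qa and Cd3e at 0 in both). Transcripts of 4 Y-linked genes summed to 149.9 to 163.3 CPM in KO and 0 to 0.0795 CPM in WT. These Y-linked transcripts split with genotype in all libraries. Differences between KO and WT therefore cannot be told apart from a difference in sex or origin of the cells. The part of the marker differences in the results below was not tested. In bulk RNA, fewer cells of a type and less RNA per cell cannot be told apart.

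In all, 5 crosslinking genes rose in KO and Loxl4 fell, so that the make-up of the lysyl oxidase transcripts differed between the genotypes. Each of the 6 genes passed an adjusted p of 0.05, where 69.3% of the 18732 tested genes did. The 5 that rose stand beside 35.1% of tested genes that were higher, and Loxl4 beside 34.2% that were lower. Differences of at least 2-fold were found in 5 of the 6 genes, against 41.4% of tested genes. These were 4 that rose, against 21.6% of tested genes, and Loxl4, against 19.8% of tested genes. The groups did not overlap in any of the 6 genes, as in 75.5% of tested genes. The median log2 fold change was 1.92 over the family and 0.0313 over all tested genes. With such a background, the count of members called is not a result particular to the family, and the description rests on their sizes and levels.

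Lox, the founding member of the family, was at 4454, 4089 and 4228 CPM in the KO libraries and at 301, 236 and 305 CPM in the WT libraries. Every KO library thus lay far above every WT library, and WT replicate 2 was the lowest of all. The difference was 15.2-fold (edgeR log2 fold change 3.92, SE 0.11, adjusted p = 8.75e-08). Lox took up 0.407% of all counts in KO libraries and 0.0293% in WT libraries. By mean deposited FPKM, a level per transcript length, it ranked 78 among the 18732 tested genes in KO and 1418 in WT. An increase larger than that of Lox was found in 5.38% of tested genes.

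Loxl1, which in mice is needed to keep elastic fibres in repair, was near absent in WT and moderate in KO. It had 119, 120.2 and 115 CPM in the KO libraries, against 0.634, 0.484 and 0.223 CPM in the WT libraries, where it rested on 40, 29 and 14 counts. The KO values were close to one another (coefficient of variation 2.38%), whereas the WT values spread by 46.6% of their mean. The fold change was 263 (log2 8.04 ± 0.26 SE, edgeR adjusted p = 2.20e-07), and 2.11% of tested genes had a larger one. This size depends on how a few WT counts are treated: on the log2(FPKM + 1) scale, which understates changes of low genes, it was 4.79.

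Loxl2 and Loxl3 moved by similar amounts. Loxl2, which also acts on collagen IV of basement membranes, was at 305, 311 and 284 CPM in KO libraries and at 85.4, 92.3 and 73.2 CPM in WT libraries. Loxl3, required in mice for the palate and the spine, was at 153, 144 and 145 CPM in KO libraries and at 33.3, 40.9 and 36.8 CPM in WT libraries. In both genes the groups were well apart and WT replicate 2 was the highest of the WT libraries, the reverse of its place for Lox. Loxl2 was 3.59-fold higher (log2 1.84 ± 0.09 SE, edgeR adjusted p = 3.35e-07) and Loxl3 3.98-fold higher (log2 1.99 ± 0.08 SE, edgeR adjusted p = 1.24e-07). The number of Loxl2 counts per Loxl3 count was 1.998, 2.16 and 1.96 in KO libraries and 2.56, 2.25 and 1.99 in WT libraries. These ranges overlapped (exact two-sided permutation test over libraries, p = 0.3). Among the 15 pairs of members, Loxl2 and Loxl3 were the one pair whose count ratio overlapped between KO and WT. The other 14 pairs each gave p = 0.1 in this exact test, the smallest that 3 against 3 libraries allow (0.107 after Benjamini-Hochberg adjustment over 15 pairs). These ratios restate the unequal fold changes of the members. The share over pairs of other genes was not computed, and 75.5% of single tested genes did not overlap between the groups. The count of pairs can therefore not be read as particular to the family.

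Loxl4, the remaining member with scavenger receptor domains, went the other way. It was at 44.8, 46.3 and 44.8 CPM in KO libraries and at 210, 169 and 210 CPM in WT libraries. KO libraries varied little among themselves, and all lay below the lowest WT library, replicate 2. The gene was 4.33-fold lower (edgeR log2 fold change -2.12, SE 0.09, adjusted p = 1.52e-07), and 9.51% of tested genes fell further. In WT libraries there were 1.43, 1.39 and 1.45 Lox counts per Loxl4 count, so the genes kept nearly the same ratio in replicate 2, where both were low. In KO libraries the ratio was 99.3, 88.4 and 94.5.

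Tgm2 showed the smallest difference of the 6 genes. It was at 159, 162 and 149 CPM in KO libraries and at 87.0, 94.6 and 91.0 CPM in WT libraries, with no overlap. The rise was 1.73-fold (log2 0.79 ± 0.05 SE, edgeR adjusted p = 3.08e-06), and 28.5% of tested genes had a larger increase.

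**Figure D1:**
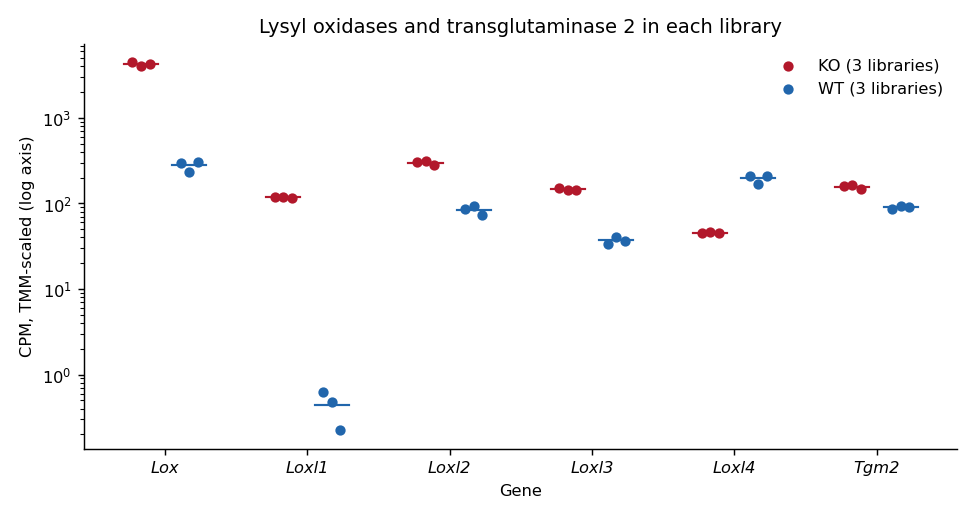
CPM of the 6 crosslinking genes in each library (log axis), with KO at the left and WT at the right of each gene, points for libraries and bars for means. KO libraries lie above WT libraries for every gene but Loxl4, which averaged 45.3 CPM in KO and 196 CPM in WT.

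**Figure D2:**
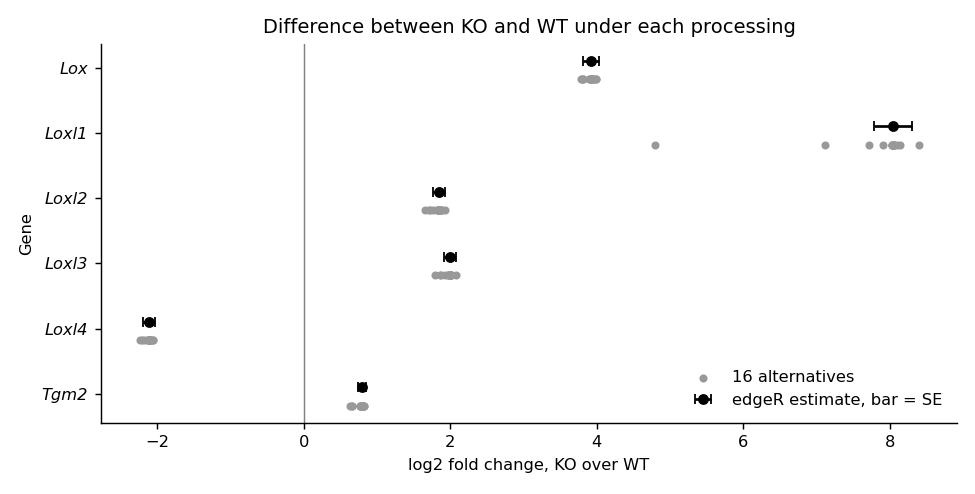
Log2 fold change of each gene, KO over WT, from edgeR with its SE (black) and from 16 alternative filters, scalings, tests and left-out libraries (grey). No alternative crosses 0, and Loxl1 alone has an alternative far from its estimate, at 4.79 on the log2(FPKM + 1) scale against 8.04.

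Several members share bases with other annotated genes, and no source used here states whether counting was by strand, so such reads may not be separable. Loxl3 overlaps Htra2 on the opposite strand, a mitochondrial protease gene that was lower in KO (32.4 CPM in KO, 45.4 CPM in WT, edgeR adjusted p = 0.00166). Tgm2 overlaps Rprd1b on the opposite strand, which was also lower (15.1 CPM in KO, 26.5 CPM in WT, edgeR adjusted p = 0.00108). Lox overlaps the antisense gene AC161119.1 (2.84 CPM in KO, 5.24 CPM in WT, edgeR adjusted p = 0.00314). These 3 partners changed in the direction opposite to that of the member. Loxl2 overlaps the antisense gene Gm27177, which rose like Loxl2 (25.98 ± 1.203 CPM in KO, 3.12 ± 0.35 CPM in WT, SD, n = 3 each, edgeR adjusted p = 1.15e-07), and Gm37513 (1.52 CPM in KO, 0.0492 CPM in WT). Mir6950 in Loxl2, Mir7040 in Loxl3 and Gm20412 in Tgm2 also overlap and did not pass the filter on low counts. Loxl1 and Loxl4 overlap no annotated gene in GENCODE M21.

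Levels of different genes were compared per transcript length, on the deposited FPKM. In KO, Lox came first at 753 ± 29.5 FPKM (SD, n = 3), followed by Loxl2 at 47.7 ± 2.27, Loxl3 at 41.98 ± 2.18, Tgm2 at 37.2 ± 1.99, Loxl1 at 29.99 ± 0.76 and Loxl4 at 11.2 ± 0.24 FPKM. No neighbours in this order overlapped in range. In WT, Lox at 54.0 ± 6.91 and Loxl4 at 51.4 ± 4.84 FPKM led together with overlapping ranges. Tgm2 followed at 23.7 ± 1.45, Loxl2 at 14.5 ± 1.72, Loxl3 at 11.4 ± 0.99 and Loxl1 at 0.122 ± 0.057 FPKM, each apart from its neighbour. Loxl4 was thus joint first among WT transcripts and last among KO transcripts. The middle of the KO order depends on the length used: from counts divided by the summed exon length, Loxl1, Tgm2 and Loxl3 lay in this order at 34.2, 32.5 and 30.6 CPM per kilobase, and neighbours among them overlapped. On that scale Lox and Loxl4 did not overlap in WT (52.3 to 66.2 for Lox, 42.6 to 51.7 for Loxl4).

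The 5 lysyl oxidases together summed to 918, 858 and 876 FPKM in the KO libraries and to 138, 121 and 136 FPKM in the WT libraries. This was 6.72 times as much in KO as in WT, and most of it was Lox. Lox made up 85.2% ± 0.42 of the sum in KO and 40.99% ± 2.48 in WT (SD, n = 3 each). Loxl4 made up 1.27% ± 0.062 in KO and 39.1% ± 0.96 in WT. The share of Loxl1 was 3.40% ± 0.16 in KO and 0.0933% ± 0.043 in WT. Although Loxl2 and Loxl3 rose in level, their shares were smaller in KO: Loxl2 held 5.40% ± 0.33 in KO and 11.1% ± 2.05 in WT, and Loxl3 held 4.75% ± 0.16 in KO and 8.74% ± 1.43 in WT. For each of the 5 shares the KO and WT libraries did not overlap, with p = 0.1 in the exact two-sided permutation test, the smallest that this design can give. Without Lox, the other 4 genes summed to 131 ± 2.29 FPKM in KO and 77.4 ± 2.67 FPKM in WT, a ratio of 1.69.

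**Figure D3:**
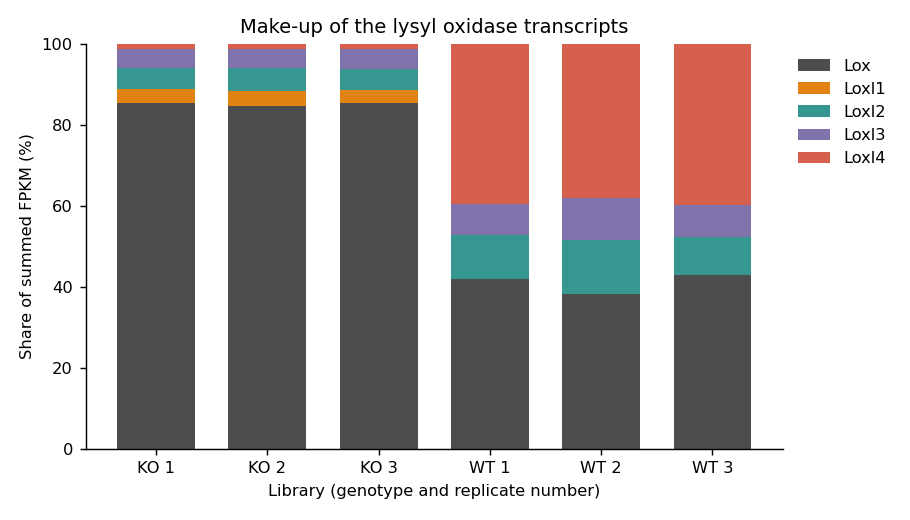
Share of each lysyl oxidase in the summed FPKM of the 5 genes (percent, stacked to 100), for the 3 KO libraries at the left and the 3 WT libraries at the right. Lox fills 84.7% to 85.5% of each KO bar and 38.2% to 42.9% of each WT bar, and Loxl4 holds 1.22% to 1.34% in KO and 37.99% to 39.8% in WT.

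The substrates were looked at next. Beside the counts of this and the later lists stand 35.1% of all tested genes that were higher in KO and 34.2% that were lower. Of 11 fibrillar collagen genes, 10 rose and 1 fell, with a median log2 fold change of 2.60. Col3a1, the chain of type III collagen, was at 3712 ± 213 CPM in KO and 3.03 ± 0.55 CPM in WT. Col1a2, a chain of type I collagen, was 11.7-fold higher and Col24a1, a minor fibrillar chain, 29.2-fold higher (1.95 CPM in KO, 0.0652 CPM in WT). The exception was Col11a2, at 1.62 CPM in KO and 5.51 CPM in WT. Of the 6 chains of collagen IV, the network of basement membranes, 2 rose, 2 fell and 2 did not pass the test. Col4a5 rose 10.6-fold and Col4a6 9.12-fold. Col4a1, at 169 ± 22.5 CPM in KO and 160.2 ± 20.04 CPM in WT, did not pass (log2 fold change 0.08 ± 0.12 SE, edgeR adjusted p = 0.595), while Col4a2 was slightly lower (163 CPM in KO, 189.6 CPM in WT, edgeR adjusted p = 0.0125). Col4a4 was lower at 0.446 CPM in KO and 2.07 CPM in WT, and Col4a3, at 0.215 CPM in KO and 0.375 CPM in WT, did not pass.

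Eln, the gene for elastin and the other classical substrate of Lox and Loxl1, was hardly transcribed in either group. It was at 0.426, 0.309 and 0.577 CPM in KO libraries and at 0.143, 0 and 0.191 CPM in WT libraries, or 76 counts in KO and 21 in WT. The ranges did not overlap, but the difference did not pass the test (log2 fold change 1.95 ± 0.92 SE, edgeR adjusted p = 0.0896). It was called higher in KO by limma-voom (adjusted p = 0.0431) and by limma on log2(FPKM + 0.1) (adjusted p = 0.0187), and over all alternatives the adjusted p lay between 0.0187 and 0.226, so the call for Eln depends on the method.

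Lox rose more than the sum of the fibrillar collagens, and the sum of the other 4 lysyl oxidases rose less, although Loxl1 within it rose more than Lox and Loxl4 fell. The 11 fibrillar collagens summed to 2591 ± 75.0 FPKM in KO and 284 ± 19.6 FPKM in WT, a ratio of 9.13. Per 100 FPKM of fibrillar collagen there were 29.1 ± 1.27 FPKM of Lox in KO and 19.2 ± 3.58 in WT (SD, n = 3 each). For the other 4 lysyl oxidases the figures were 5.05 ± 0.072 in KO and 27.4 ± 2.77 in WT. All 5 together came to 34.1 ± 1.33 in KO and 46.6 ± 6.29 in WT. The groups did not overlap in any of these (exact two-sided permutation p = 0.1 each). On counts per exon length the directions were the same, but the 5 together, at 54.9 ± 2.27 in KO and 59.1 ± 8.97 in WT, overlapped (exact p = 0.5). These ratios were chosen after the levels had been seen.

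Genes that mature, place or supply lysyl oxidases were mostly higher in KO. Of 15 listed genes 14 were tested, of which 13 rose and 1 fell (median log2 fold change 2.34). Among all tested genes 35.1% were higher and 34.2% lower. Bmp1, the protease that removes the Lox propeptide, was at 475 ± 41.1 CPM in KO and 120.1 ± 7.53 CPM in WT, a 3.96-fold difference. Its relative Tll1 had 513 counts in KO and 5 in WT, all of the WT counts being in replicate 1. Adamts2 and Adamts14, procollagen N-proteinases that can also cut Lox, rose 11.4-fold and 6.50-fold.

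Among the scaffolds that bring Lox to its substrates, the largest rise was in Postn. Periostin, its product, binds Bmp1 and fibronectin, and the gene was at 213 ± 12.8 CPM in KO and 1.22 ± 0.11 CPM in WT. Fmod, whose product binds collagen and Lox, was at 14.7 CPM in KO and 0.113 CPM in WT. Thbs1, encoding thrombospondin 1, rose 23.9-fold. Fn1, encoding fibronectin, was already abundant in WT at 9596 CPM and reached 22486 CPM in KO. The fibulins that guide Lox and Loxl1 to elastic fibres moved least: Efemp2 rose 1.32-fold (edgeR adjusted p = 0.00305) and Fbln5 1.90-fold (edgeR adjusted p = 0.0169).

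Copper reaches the secreted oxidases through uptake, a chaperone and a pump, and these 3 genes did not move together. The uptake transporter Slc31a1 fell to 63.4 ± 3.53 CPM in KO, against 86.2 ± 3.90 CPM in WT (edgeR adjusted p = 0.000298). The chaperone Atox1 rose 2.60-fold and Atp7a, the pump that loads copper into the secretory pathway, 1.49-fold (58.0 ± 2.49 CPM in KO, 38.9 ± 2.81 CPM in WT).

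Enzymes that modify collagen lysines and prolines before crosslinking rose by smaller amounts. Of 12 tested genes 9 rose, against 35.1% of all tested genes, 1 fell, against 34.2%, and 2 did not pass (median log2 fold change 0.73). Plod2, the hydroxylase of telopeptide lysines from which stable crosslinks form, rose 2.27-fold. Plod1, which hydroxylates helical lysines, was lower at 71.98 ± 1.49 CPM in KO and 85.5 ± 6.82 CPM in WT (edgeR adjusted p = 0.0100), and Plod3 was at 127.5 ± 5.50 CPM in KO and 127.4 ± 1.502 CPM in WT (edgeR adjusted p = 0.987). Pxdn, a peroxidase that forms sulfilimine crosslinks in collagen IV, rose 9.30-fold, and the prolyl hydroxylase family gene P3h3 rose 10.3-fold. Serpinh1, the collagen chaperone, was at 355, 394 and 597 CPM in KO libraries and at 403, 684 and 695 CPM in WT libraries. Its groups overlapped widely and it did not pass (edgeR adjusted p = 0.290).

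Tgm2 was the only transglutaminase of the list above 3 CPM in any library. Of the 9 other members of that family, 3 passed the filter and 0 passed the test (edgeR), 0 at an unadjusted p under 0.05, against 1 called by DESeq2 and 0 by limma-voom. Tgm1, the keratinocyte enzyme, was at 1.796 ± 0.25 CPM in KO and 1.33 ± 0.46 CPM in WT (edgeR adjusted p = 0.245). Tgm4 and F13a1, the gene for a chain of coagulation factor XIII, lay between 0 and 0.652 CPM in every library. Tgm5 had 0 counts in KO and 29 in WT, Tgm6 and Epb42 averaged under 0.1 CPM in both groups, and Tgm3, Tgm7 and F13b were at 0 in both.

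Among 12 partners and substrates of Tgm2, 10 rose, against 35.1% of all tested genes, and 2 fell, against 34.2% (median log2 fold change 0.65). Nid1, a basement membrane linker that is a transglutaminase substrate, rose 42.05-fold (2390 ± 20.9 CPM in KO, 56.8 ± 0.49 CPM in WT). Lrp1, an endocytic receptor that clears Tgm2 from the surface, rose 4.97-fold, Spp1, encoding osteopontin, 4.18-fold and Ltbp1, which holds latent TGF-beta in the matrix, 3.20-fold. Both genes that fell encode surface receptors that bind Tgm2. Itgb3, integrin beta 3, was 8.22-fold lower (7.55 ± 0.86 CPM in KO, 62.1 ± 10.95 CPM in WT) and Adgrg1, an adhesion receptor, 3.03-fold lower. Itgb1, integrin beta 1, rose 1.51-fold.

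Of the 3 other copper amine oxidases, which carry a different cofactor, 1 rose, 1 fell and 1 did not pass the test. Aoc2 was 5.33-fold lower (7.13 ± 0.67 CPM in KO, 38.0 ± 4.90 CPM in WT, edgeR adjusted p = 5.20e-07). Aoc3, vascular adhesion protein 1, was at 0.983 ± 0.34 CPM in KO and 1.37 ± 0.31 CPM in WT and did not pass (edgeR adjusted p = 0.275). Aoc1 had 57 counts in KO and 0 in WT, at least 20.6-fold higher in KO against a floor of 3 counts over the WT group, and stayed under 0.5 CPM.

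Loxl2 and Loxl3 are also known to bind the transcription factor Snail inside the nucleus. Snail genes, partner factors and Cdh1, which is a target rather than a partner of Snail, were therefore listed as well. Of these 7 genes 6 rose, Cdh1 among them, and 1 fell (median log2 fold change 1.07). Among all tested genes 35.1% were higher and 34.2% lower. Snai1, which encodes Snail, was at 62.2, 61.96 and 62.8 CPM in KO libraries and at 12.7, 15.7 and 14.2 CPM in WT libraries, a 4.39-fold rise. Snai2, encoding its relative Slug, fell 2.95-fold (35.6 ± 1.503 CPM in KO, 105.2 ± 11.7 CPM in WT). The partner factors Twist1 and Zeb2 rose 2.22-fold and 2.10-fold, Zeb1 1.78-fold and Tcf3 1.14-fold. Cdh1, the gene for E-cadherin and a known target of repression by Snail, was scarce, at 0.927 CPM in KO and 0.152 CPM in WT (edgeR adjusted p = 0.00523).

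**Figure D4:**
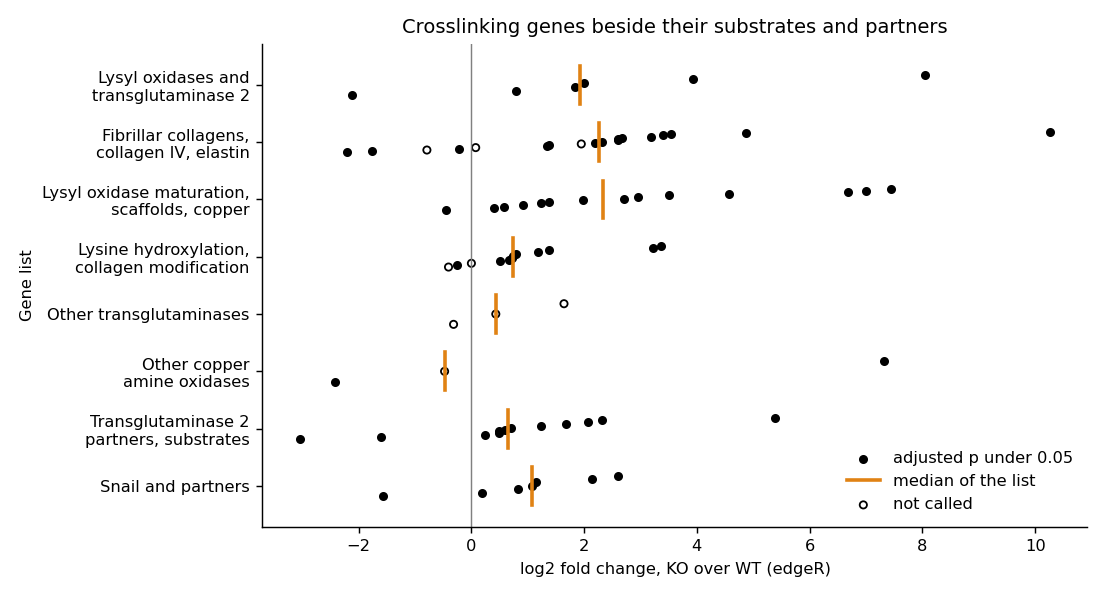
Log2 fold change, KO over WT, of each tested gene in the crosslinking family and in 7 lists of substrates and partners (filled, adjusted p under 0.05; open, not called; orange, list median). Most points lie to the right of 0, with list medians from -0.47 for other copper amine oxidases to 2.34 for lysyl oxidase maturation genes, against 0.0313 over all tested genes.

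Genes whose pattern was most like each member were sought among the other 73 tested genes of these lists. Likeness was the root mean square difference between centred log2 CPM profiles over the 6 libraries, where a smaller value means a closer pattern. Lox lay nearest to Col1a2 (0.250) and Adamts2 (0.262). Loxl1 lay nearest to Postn (0.582) and then Tll1 (1.16). For Loxl2 the nearest were Bmp1 (0.120) and Loxl3 (0.135), and for Loxl3 they were Bmp1 (0.0642) and Snai1 (0.0751). Loxl4 lay nearest to Aoc2 (0.183) and Snai2 (0.283), and Tgm2 to Colgalt1 (0.0496), a collagen galactosyltransferase gene, and Ppib (0.0643), which encodes an endoplasmic reticulum prolyl isomerase. Since the libraries fall into 2 groups, this measure mainly reflects the size and sign of the difference between KO and WT.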

How the data were processed

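RNA sequencing of 6 libraries (3 KO, 3 WT) was used, with groups and replicate numbers from the sample titles. For each Ensembl gene the authors deposited a raw count and an FPKM value, per the file headers. The submitters' processing notes name build GRCm39 and the tools HISAT2, edgeR, CASAVA 1.8 and SAMtools 1.3.1, without their roles. The counter, strand setting, annotation and gene lengths behind the deposited FPKM are not given in the sources used. Symbols, exon lengths and overlaps came from GENCODE M21 (55394 of 56393 identifiers matched, 98.23%), which is of another build, so no coordinates of it are given. The promoter came from RefSeq, build GRCm38.p6.

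Counts were filtered with filterByExpr, scaled with TMM and tested over all genes by robust quasi-likelihood in edgeR 4.0.16 (R 4.3.3), KO against WT, with Benjamini-Hochberg adjustment. CPM use TMM-scaled library sizes, with mean ± SD over 3 libraries. Counts per exon length use unscaled library totals. Shares and ratios of FPKM were tested by exact permutation over libraries. The script was tested on simulated data. No replicates were duplicates: chi-square values between them were 22.6 to 34.8 times their degrees of freedom. The floor of 3 counts over a group covers counting error only. Alternatives were DESeq2 1.42.0, limma 3.58.1 on voom values and on log2(FPKM + 0.1) or log2(FPKM + 1), other scalings and filters, a block for replicate number, and the omission of single libraries.

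The members and lists were chosen with earlier results of these data known. All members are named. The rule for other genes allowed, in each list, up to 5 called genes with the largest change and up to 4 not called or not tested, any gene of a list with under 10 tested members, markers, the nearest patterns, and overlapping and neighbouring genes. Not every gene so allowed is named, and marker lists are given mainly by sums and counts. Col11a2, Col4a2, Col4a4, Adamts14, Fn1, Efemp2, Fbln5, Slc31a1, Atox1, Atp7a, Plod1, Adgrg1 and Itgb1 fall outside this rule, being chosen after their values had been seen.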

Additional observations from a re-analysis of the deposited data

How the results depend on the processing

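The 6 members kept their direction and their call in all 16 alternatives: Lox at 3.78 to 3.99 (log2 fold change), Loxl1 at 4.79 to 8.39, Loxl2 at 1.66 to 1.92, Loxl3 at 1.79 to 2.07, Loxl4 at -2.24 to -2.06 and Tgm2 at 0.63 to 0.82. Scaling by total counts put the median of all genes at -0.0992 in place of 0.0313, the share of higher genes among calls at 45.4% in place of 50.7%, Lox at 3.796, Loxl4 at -2.24 and Tgm2 at 0.66. The replicate numbers did not pair the samples (correlations of deviations -0.0237, 0.0180 and -0.00904), and with the replicate block 12233 genes were called in place of 12980, Lox was at 3.93 and no list count changed by over 1.5 times. Dividing counts by exon length put Lox at 86.9% of the lysyl oxidase sum in KO and 45.4% in WT, Loxl3 at 3.12% in KO and 6.31% in WT, and Loxl4 at 1.05% in KO and 36.1% in WT. Per 100 of fibrillar collagen it gave 47.7 in KO and 26.96 in WT for Lox, 7.18 in KO and 32.2 in WT for the other 4, and 54.9 in KO and 59.1 in WT for all 5, an alternative added after seeing the data. Small list counts moved as follows. Scaling by total counts called 2 collagen-modifying genes lower in place of 1. Among other transglutaminases 1 was higher on log2(FPKM + 0.1), and 1 was lower by DESeq2 and 1 with no filter. The stricter filter and log2(FPKM + 1) each left 0 other copper amine oxidases higher and 0 endothelial markers higher. The stricter filter also left 1 smooth muscle marker lower, 2 endothelial markers lower and 1 mesothelial or epithelial marker higher. DESeq2 called 2 pericyte markers higher. Leaving out each library gave 1 to 2 pericyte markers higher (2 without KO replicate 1 or WT replicate 2) and 0 to 1 endothelial markers higher (0 without any one KO library or WT replicate 2). The cause of these shifts was not tested. Depth limits Loxl1 in WT (83 counts in 3 libraries) and Eln in both groups.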

Other observations

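The tested genes that lie next to each member on its chromosome did not all share its direction. Beside Loxl1, the neighbour Stoml1 rose (52.5 ± 0.36 CPM in KO, 14.6 ± 3.25 CPM in WT, edgeR adjusted p = 1.32e-05), while the noncoding 4930461G14Rik on the other side fell (0.0511 CPM in KO, 0.704 CPM in WT). Beside Loxl4, R3hcc1l fell as Loxl4 did (28.2 ± 1.35 CPM in KO, 40.2 ± 1.68 CPM in WT), and Pyroxd2 rose (36.1 ± 1.23 CPM in KO, 16.9 ± 3.21 CPM in WT). Beside Lox, Srfbp1 fell (34.4 CPM in KO, 58.0 CPM in WT) and Zfp474 rose (0.576 CPM in KO, 0.103 CPM in WT). Both neighbours of Loxl2 rose, Entpd4b (50.6 CPM in KO, 22.1 CPM in WT) and R3hcc1 (34.4 CPM in KO, 22.4 CPM in WT). Beside Loxl3, Dok1 rose (54.8 CPM in KO, 34.4 CPM in WT) and Aup1 fell (66.1 CPM in KO, 77.7 CPM in WT). Beside Tgm2, Tti1 did not pass the test (20.7 CPM in KO, 21.4 CPM in WT, edgeR adjusted p = 0.616) and D630003M21Rik rose (3.43 CPM in KO, 1.33 CPM in WT).

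The WT libraries varied more than the KO libraries in 5 of the 6 members by coefficient of variation of CPM: 4.33% in KO and 13.8% in WT for Lox, 2.38% in KO and 46.6% in WT for Loxl1, 4.67% in KO and 11.5% in WT for Loxl2, 3.11% in KO and 10.3% in WT for Loxl3, and 1.87% in KO and 11.9% in WT for Loxl4. For Tgm2 it was 4.27% in KO and 4.19% in WT. Each value rests on 3 libraries, and the difference was not tested. The share of all tested genes with a larger spread in WT was not computed, so the count can not be read as particular to the family. Lox, Loxl1, Loxl2 and Loxl3 also had their lower level in WT, where Loxl1 rested on 40, 29 and 14 counts.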
